A study of Mus musculus with 67 samples.

Results

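DNA replication is carried out by a set of proteins that every dividing cell needs, and 47 genes for this machinery were followed through preimplantation mouse development. The genes were chosen by name, and all 47 were found among the 26414 genes of the deposited expression table. They fall into 9 roles: the origin recognition complex, the licensing factors with geminin, the Mcm2 to Mcm7 helicase, the factors that fire origins, the polymerases with primase, the sliding clamp and its loader, the single-strand binding protein RPA, the enzymes that join Okazaki fragments and untangle DNA, and the enzymes that supply deoxynucleotides.

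The embryos were C57BL/6, made by in vitro fertilization, and RNA of 67 picked single cells was sequenced with SMART-seq2, a full-length polyA method that does not record the strand. Embryos of the light group received 6 h of light at 5000 lx as 2-cell embryos and were in darkness from then on, and control embryos stayed in darkness throughout. There were 7 control and 6 light libraries of 2-cell embryos, 6 and 8 of 4-cell embryos, 4 and 8 of 8-cell embryos, 13 and 6 of morulae and 3 and 6 of blastocysts. The labels number an embryo for each library, but nothing in them says that the libraries came from separate cultures or litters, and whether each came from an embryo of its own was not tested. The p-values therefore measure the spread between these libraries, and are too small if several share an embryo.

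Replication starts at origins, where the origin recognition complex, Cdc6 and Cdt1 load the ring of Mcm2 to Mcm7 onto DNA before S phase, while geminin holds Cdt1 back once S phase has begun. The Cdc7 kinase with its partner Dbf4, together with Cdc45, GINS and Mcm10, then turns the ring into an active helicase, behind which the polymerases copy both strands. The mouse embryo begins with RNA stored by the oocyte, and its own genome is transcribed broadly from the 2-cell stage on, so the RNA for this machinery passes from a maternal to an embryonic supply while the cells divide without growth.

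The deposited values were reads divided by a size factor of each library, and whole reads were recovered from them. Between 54.0% and 89.3% of the reads of a library lay on CT010467.1 and Gm42418, which carry ribosomal RNA sequence. Levels are given here as CPM, counts per 1000000 reads outside these 2 genes, of which a library held 318176 to 2867032, so that 1 read was worth 0.349 to 3.14 CPM. The replication genes took 1566 to 17813 reads of a library, and 42 to 47 of them had at least 1 read in each. The ratio of Gm42418 to CT010467.1 reads, a property of the libraries rather than of the genes studied, was 2.34 to 4.03 in control and 1.58 to 1.77 in light 2-cell libraries, and the groups were also apart at the 8-cell stage (2.01 to 2.34 against 1.52 to 1.71) and in morulae (2.34 to 4.14 against 1.49 to 1.67). Its part in the differences between light and control was not tested. Reads of 4 Y-linked genes reached a summed 10 CPM in 3 of 7 control and 2 of 6 light 2-cell libraries, 4 of 6 and 8 of 8 4-cell libraries, 0 of 4 and 3 of 8 8-cell libraries, 0 of 13 and 1 of 6 morula libraries, and 0 of 3 and 6 of 6 blastocyst libraries. That is 0 of 20 control libraries from the 8-cell stage on, and 14 of 14 light 4-cell and blastocyst libraries. Counts this uneven can arise where libraries of a group share embryos, and whether they do was not tested. The part of sex in the differences between light and control was not tested at any stage. Control 4-cell replicate 3 correlated better with the light libraries of its stage (median r over genes 0.842) than with the other controls (0.788), and the counts of replication genes for that stage are given with and without it. Control 4-cell replicates 1 and 2 correlated less with both groups (0.727 and 0.735 with light, 0.728 and 0.732 with control libraries). Their ratios of Gm42418 to CT010467.1 were 4.55 and 4.35, against 1.61 to 1.98 in the other 4-cell controls, and they were not left out together. The summed level of 10 oocyte genes was 1898 to 4363 CPM in control 2-cell libraries and at most 33.3 CPM in control blastocysts, and 6 sperm genes summed to at most 8.65 CPM in any library. Markers did not follow the stage labels throughout. A list of 7 transient 2-cell genes summed to 0.885 to 6.79 CPM in control 4-cell libraries but to 58.7 to 423 CPM in control 8-cell libraries, and the reason was not tested.

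All 47 genes were expressed. A read was found in every library for 27 of them, and the least often detected, Rfc3, a small subunit of the clamp loader, had a read in 59 of 67 libraries. By mean level over all libraries Rrm2, the small subunit of ribonucleotide reductase, came first at 549 CPM, followed by Top2a, the topoisomerase that untangles replicated DNA, at 421 CPM. Rpa3, the smallest RPA subunit, was lowest at 16.1 CPM.

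Promoters bear on these genes because many S phase genes are known targets of E2F factors. RefSeq (GRCm38.p6) gave a promoter window, 250 bases before to 50 bases after the start, for 39 of the 47 genes. The letters TTTCGCGC or TTTGGCGC, the core of the E2F site, were found on either strand in 10 of these 39 (25.6%), namely Orc1, Cdt1, Mcm3, Mcm5, Mcm6, Mcm7, Pola1, Pole2, Rfc3 and Lig1, against 0.929% of 27025 windows of all genes. CCAAT, the core of the NF-Y site, was in 61.5% of the 39 and 41.1% of all windows, and TTTGAA or TTCGAA, the cell cycle homology region, in 25.6% and 21.7%. Among the 14974 genes of the deposited table with a window, 1.42% had the E2F letters, 42.2% CCAAT and 17.7% the cell cycle homology region. The median GC content of the windows was 61.3%, against 52.7% over all genes. The median number of CG dinucleotides was 24 against 7, and both forms of the E2F letters contain CG. The part of this in the share of genes with the letters was not tested. The 200 bases before the start are shown 5′ to 3′ for 5 genes on which results below turn, with both motifs in capitals on whichever strand they lie: Mcm5 and Mcm6, where both forms of the E2F letters overlap on opposite strands, Orc1, which has 1 match and whose level fell late, and Rrm2 and Tyms, which have no E2F letters and which differed in several comparisons.
Mcm5, chr8:75109309-75109508, plus strand: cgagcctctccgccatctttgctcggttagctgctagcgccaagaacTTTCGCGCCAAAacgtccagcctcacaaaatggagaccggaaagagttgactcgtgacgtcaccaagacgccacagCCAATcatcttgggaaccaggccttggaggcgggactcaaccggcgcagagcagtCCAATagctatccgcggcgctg
Mcm6, chr1:128359706-128359905, minus strand: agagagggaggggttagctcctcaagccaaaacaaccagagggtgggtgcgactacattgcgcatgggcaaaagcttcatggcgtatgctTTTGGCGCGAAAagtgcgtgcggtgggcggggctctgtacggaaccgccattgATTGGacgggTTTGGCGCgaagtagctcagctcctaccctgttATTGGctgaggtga
Orc1, chr4:108579254-108579453, plus strand: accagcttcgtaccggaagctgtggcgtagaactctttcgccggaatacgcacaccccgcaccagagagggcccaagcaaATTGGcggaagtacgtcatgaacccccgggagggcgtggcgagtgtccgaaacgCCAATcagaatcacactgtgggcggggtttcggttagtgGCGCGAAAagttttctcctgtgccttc
Rrm2, chr12:24708054-24708253, plus strand: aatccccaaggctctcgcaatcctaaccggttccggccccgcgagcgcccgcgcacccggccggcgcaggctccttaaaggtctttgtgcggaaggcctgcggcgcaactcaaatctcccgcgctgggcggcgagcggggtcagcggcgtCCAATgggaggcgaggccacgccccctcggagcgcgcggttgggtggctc
Tyms, chr5:30073626-30073825, minus strand: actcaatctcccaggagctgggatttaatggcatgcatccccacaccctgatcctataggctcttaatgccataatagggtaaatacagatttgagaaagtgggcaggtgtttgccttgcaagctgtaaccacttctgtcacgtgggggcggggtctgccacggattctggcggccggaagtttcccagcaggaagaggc
In Mcm5 the E2F matches began 153 and 149 bases before the start, in Mcm6 110, 106 and 47 bases before it, and in Orc1 27 bases before it. Genes with and without the motif moved: from the 2-cell to the 4-cell control, 4 of the 10 genes with the E2F letters rose and 0 fell, while 14 of the 29 without them rose and 3 fell, where 16.6% of all genes rose and 28.5% fell. A match is a string of letters and not a measured binding site.

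On the CPM scale the median summed level of the 47 genes was lowest at the 2-cell stage, in both groups. In control libraries it was 3251 to 4565 CPM (median 3699) at the 2-cell stage and 5565 to 7023 CPM (median 6343) at the 4-cell stage, and every 4-cell library lay above every 2-cell library. The 8-cell controls gave 4526 to 5666 CPM (median 4855), morulae 4957 to 7175 CPM (median 5544) and blastocysts 4084, 5882 and 7047 CPM. In light libraries the 2-cell sum was 4627 to 6213 CPM (median 5124), above every control of that stage. The light medians were then 6485 CPM at the 4-cell, 5609 CPM at the 8-cell, 6803 CPM at the morula and 6100 CPM at the blastocyst stage. From the 4-cell stage on the ranges of light and control overlapped at each stage. The order of the stages turned with the values as deposited. There the control medians of the sum were 4685, 6235, 3335, 4155 and 2994 in order of stage, and the light medians were 6655, 6450, 3873, 4201 and 2619, so the light sum was highest at the 2-cell stage. On that scale light and control 2-cell libraries overlapped (from 6085 and up to 6773), and so did control 2-cell and 4-cell libraries (up to 6773 and from 5152).

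**Figure D1:**
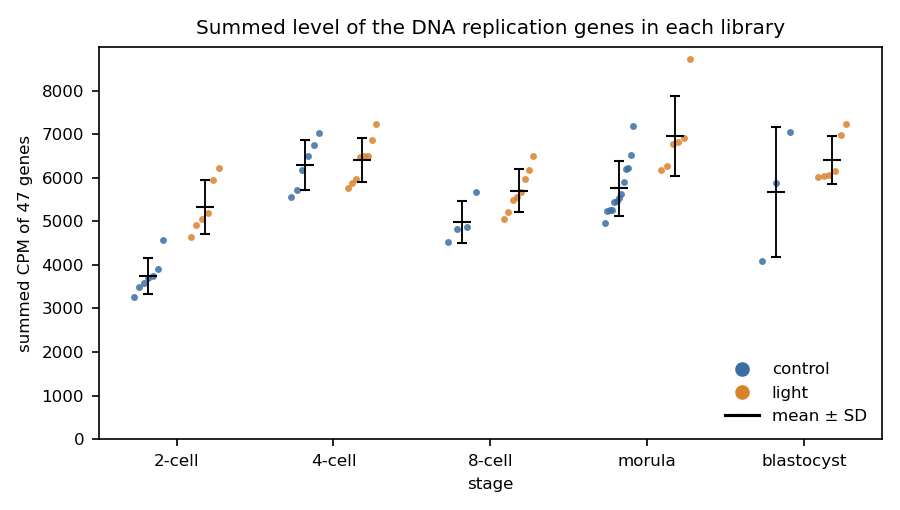
Summed CPM of the 47 replication genes (y axis, linear, from 0) in each library by stage (x axis), control and light, points ordered by value within a group, with the mean ± SD. The 6 light 2-cell libraries, from 4627 CPM up, lie above the 7 control 2-cell libraries, which end at 4565 CPM, and the groups overlap at the other stages, while with the values as deposited they overlap at the 2-cell stage too.

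The roles did not share 1 time course. Of the 47 group means in control libraries, 23 were lowest at the 2-cell stage, and the highest mean was at the 2-cell stage for 6 genes, at the 4-cell stage for 12, at the 8-cell stage for 1, in morulae for 12 and in blastocysts for 16. In light libraries 20 means were lowest at the 2-cell stage, and the highest fell at these stages for 9, 8, 3, 14 and 13 genes. The origin recognition complex went against the sum: its 6 genes summed to a median of 730 CPM in control 2-cell libraries and 343 CPM in 8-cell controls, whereas the nucleotide supply genes went from a median of 157 CPM to 1099 CPM between the 2-cell stage and the morula.

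**Figure D2:**
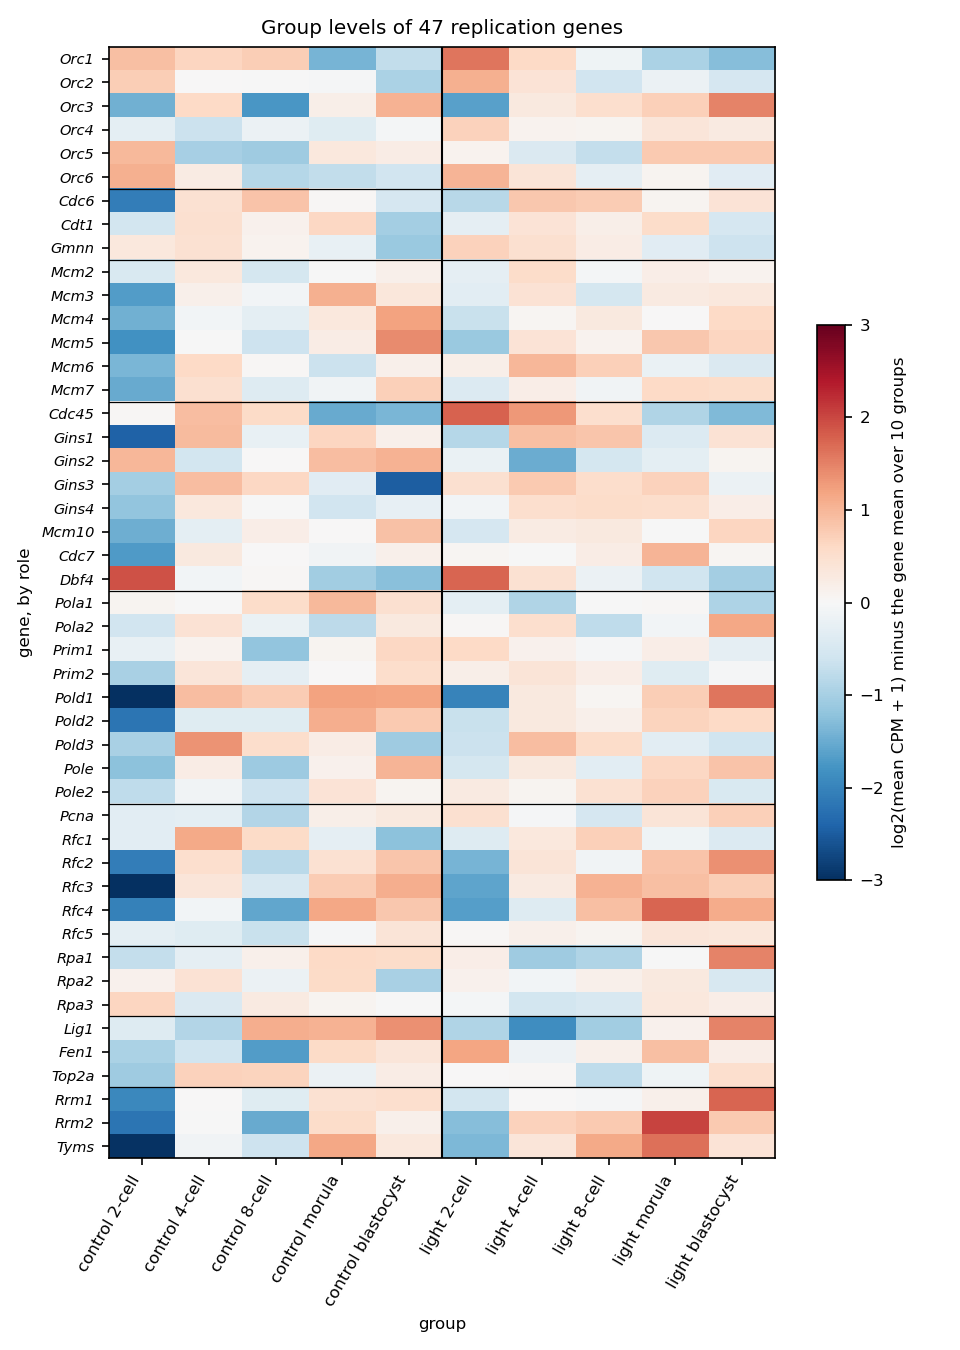
Group means of the 47 genes in 10 groups, as log2(mean CPM + 1) minus the mean of each gene over the groups, with colours ending at -3 and 3, and with lines between roles. Most genes of the helicase, polymerase, clamp loader and nucleotide roles are blue in the first column (control 2-cell), while Orc5, Orc6 and Dbf4 are red there.

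The first question was which of the genes change when the embryo passes from the 2-cell to the 4-cell stage, and whether they do so in both groups. In control embryos 28 of 47 changed, 24 upward and 4 downward, where a change is called at an adjusted p under 0.05 with at least a 2-fold difference. Over all 20125 genes tested 45.1% changed, 16.6% upward and 28.5% downward, and the median log2 fold change was 1.45 over the 47 genes and -0.38 over all genes. In light embryos 11 of 47 changed, 10 upward and 1 downward, where 26.5% of all genes did, 7.84% upward and 18.6% downward, and the medians were 0.68 and -0.28. The control count was 27 without control 4-cell replicate 3. The 2-cell groups also differed in oocyte RNA, with 10 oocyte genes summing to 1898 to 4363 CPM in control and 525 to 1807 CPM in light libraries, and its part in the size of the steps was not tested.

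The largest rise was that of Pold1, the catalytic subunit of polymerase delta. It had 0 to 4.15 CPM (median 0.837) in control 2-cell libraries and 35.4 to 184 CPM (median 118) in 4-cell controls, and in light libraries 0 to 55.8 CPM (median 6.15) and then 52.3 to 120 CPM (median 71.6). The ranges of the stages did not overlap in the control group and met only in 1 light 2-cell library. The log2 fold change was 5.77 ± 0.64 (SE, adjusted p = 1.2e-09) in control and 3.41 ± 0.62 (adjusted p = 5.21e-05) in light embryos. Pold3, an accessory subunit of the same polymerase, went from 93.3 ± 22.9 to 469 ± 133 CPM (mean ± SD) in control embryos, a log2 fold change of 2.30 ± 0.26 (adjusted p = 2.82e-09). In light embryos Pold3 rose by 1.62 ± 0.26 (adjusted p = 7.28e-06).

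All 3 nucleotide supply genes rose in control embryos and 2 of them in light embryos. Tyms, the thymidylate synthase, rose by 3.71 ± 0.56 and 1.73 ± 0.55 on the log2 scale, and Rrm2 by 1.87 ± 0.56 (adjusted p = 0.00593) and 2.29 ± 0.54 (adjusted p = 0.00139). Rrm1, the large subunit that pairs with Rrm2, rose in control embryos alone by the test (2.23 ± 0.52), and the difference between its steps was not past the threshold (adjusted p = 0.407).

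Of the helicase, 4 of 6 genes rose in control and 1 of 6 in light embryos, with all 6 fold changes above 0 in both. Mcm6 went from 54.8 to 148 CPM (median 76.2) to 248 to 453 CPM (median 362) in control embryos, a log2 fold change of 2.00 ± 0.30 (adjusted p = 6.05e-07). Mcm5 was the helicase gene that rose in light embryos, by 2.16 ± 0.72 (adjusted p = 0.0215), against 1.20 ± 0.74 in control (adjusted p = 0.185). Without light 2-cell replicate 16 its light change was 1.24 and was not called (adjusted p = 0.139), which leaves 0 of 6 in light embryos. Of the clamp and its loader, Rfc1, Rfc2, Rfc3 and Rfc4 rose in control and Rfc2 and Rfc3 in light embryos. The call of Rfc4 was lost without any of 8 of the 13 control libraries, and that of Rfc3 in light embryos without any of 7 of the 14. Pcna, the clamp itself, kept group means of 57.4 ± 14.5 and 59.0 ± 23.7 CPM (SD) in the control stages.

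Of the 6 origin recognition genes 2 fell and 1 rose in control embryos, and 1 rose in light embryos. Orc5 fell from 88.1 to 240 CPM (median 126) to 6.20 to 70.6 CPM (median 35.2) in control embryos, by 2.22 ± 0.45 on the log2 scale (adjusted p = 8.22e-05), and Orc2 by 1.05 ± 0.40, a call lost without any of 3 of the 13 libraries. Orc3 rose, with a log2 fold change of 1.96 ± 0.56 in control and 2.12 ± 0.54 in light embryos. Dbf4, the activating subunit of the Cdc7 kinase, fell in both groups. It had 593 to 843 CPM in control 2-cell libraries and 91.9 to 327 CPM at the 4-cell stage, and its log2 fold change was -2.11 ± 0.26 in control (adjusted p = 1.25e-08) and -1.27 ± 0.25 in light embryos (adjusted p = 0.000175). Gins2, a GINS subunit, fell in control embryos (-1.62 ± 0.57, adjusted p = 0.0181), but 67.3% of its exon bases overlap Gse1 on the other strand, which changed by -2.13 in the same step, and reads of the pair cannot be told apart.

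Cdc6, which brings the helicase to origins, rose in both groups (2.30 ± 0.51 and 1.68 ± 0.49). For Gmnn, geminin, the 4 means of the 2-cell and 4-cell groups lay between 221 and 288 CPM. None of the 3 RPA genes passed the test in either group.

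Top2a was the only gene called for a difference between the groups in the size of its step. It had 60.5 to 353 CPM (median 216) in control 2-cell and 463 to 969 CPM (median 612) in control 4-cell libraries, and 173 to 608 CPM (median 476) and 226 to 593 CPM (median 432) in the light stages. The stages did not overlap in control embryos and overlapped in light embryos. The log2 fold change was 1.85 ± 0.31 in control and 0.08 ± 0.30 in light embryos, and the difference, -1.78 ± 0.44, had an adjusted p of 0.0159. Of the 47 genes 1 was called for this difference, against 4.06% of all genes (1.94% with a larger and 2.13% with a smaller log2 change in light embryos), 1 also without control 4-cell replicate 3, and 2 without light 2-cell replicate 14 or without control 2-cell replicate 11. By limma 8 had an unadjusted p under 0.05, and edgeR called 2. The median difference was -0.63 over the 47 genes, against 0.09 over all genes, and 14 of the 47 differences were above 0. The call of Top2a was kept without each of the 27 libraries (-2.01 to -1.52). For Pold1 the difference of -2.35 ± 0.89 did not pass (adjusted p = 0.124).

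**Figure D3:**
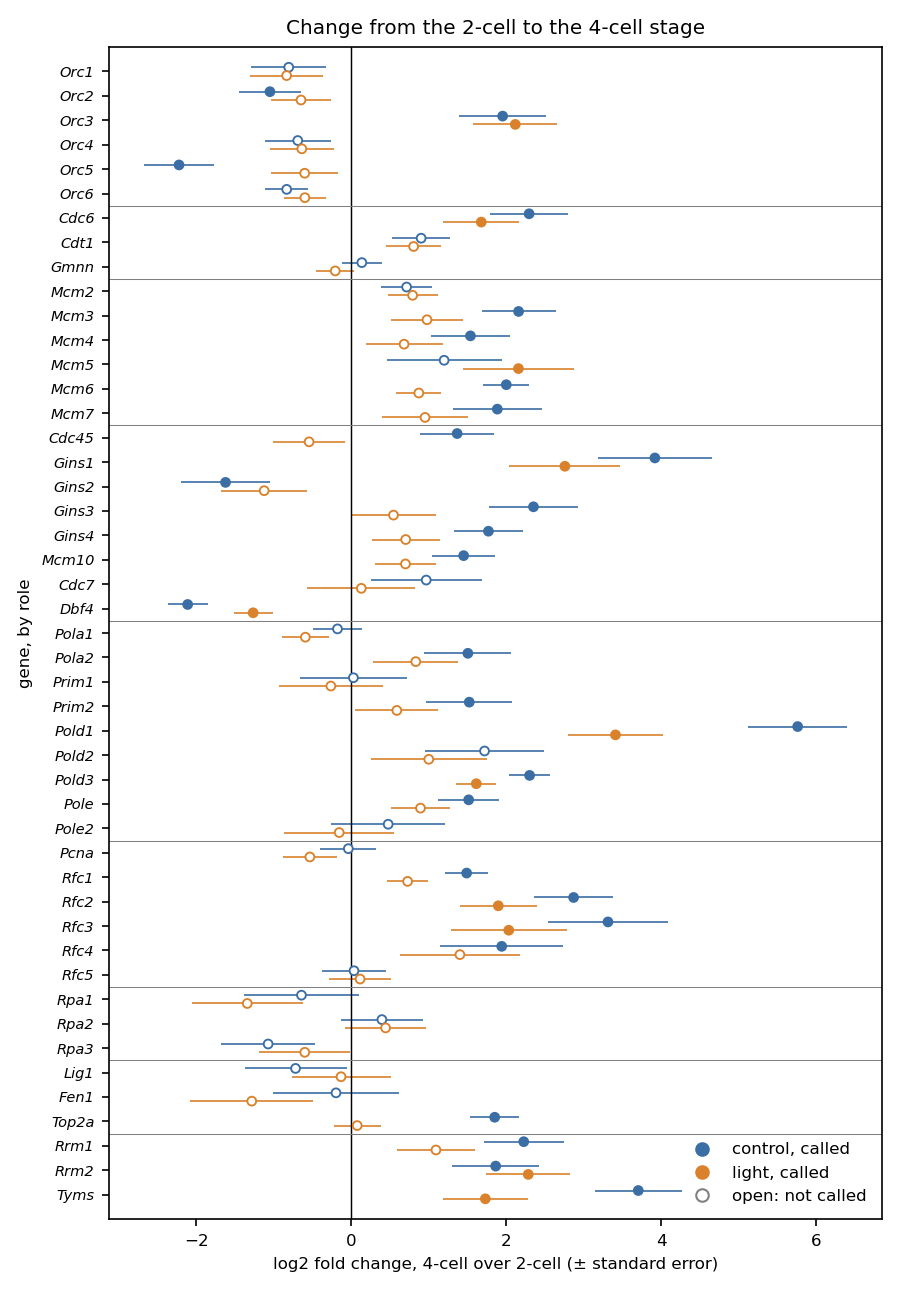
Log2 fold change of the 4-cell over the 2-cell stage (x axis, points with standard errors) for the 47 genes by role (y axis), in control and light embryos, filled where the change was called. Pold1 lies farthest to the right in both groups, Dbf4 is filled to the left of 0 in both, and Top2a is at 1.85 in control and 0.08 in light embryos.

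On the CPM scale later steps moved fewer of the genes. From the 4-cell to the 8-cell stage 4 of 47 fell and 0 rose in control embryos, against 6.54% of all genes changed (3.80% upward and 2.73% downward), and 0 of 47 changed in light embryos, against 0.604% (0.219% upward and 0.385% downward). The control count was 1 without control 4-cell replicate 4, without control 4-cell replicate 6 or without control 8-cell replicate 1, and 4 without control 4-cell replicate 3. Orc3 fell from 7.28 to 94.2 CPM (median 60.5) to 0, 0.674, 1.41 and 39.4 CPM, by 3.70 ± 0.87 on the log2 scale (adjusted p = 0.00618), Orc6 by 1.11 ± 0.32 (adjusted p = 0.0295) and Pole, the catalytic subunit of polymerase epsilon, by 1.65 ± 0.50 (adjusted p = 0.0388). The calls of Orc6 and Pole were each lost without any of 5 of the 10 libraries. That of Orc3 was lost with edgeR, and that of Pole also with edgeR, with median ratio scaling and without the filter. With the values as deposited, 14 genes fell in control and 9 in light embryos, and the light step from the 2-cell to the 4-cell stage had 8 calls on that scale. On that scale the median of all genes also fell by 0.39 and 0.38, and that of the 47 genes by 1.15 and 0.75, against -0.44 and -0.21 on the CPM scale.

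From the 8-cell stage to the morula 11 of 47 genes changed in control embryos, 9 upward and 2 downward, against 17.8% of all genes (6.97% upward and 10.9% downward), and 3 in light embryos, 2 upward and 1 downward, against 5.05% (2.45% upward and 2.60% downward). Rrm2 rose in both groups. Its values were 50.7, 72.0, 172 and 247 CPM in the 8-cell controls and 290 to 898 CPM (median 578) in control morulae, and in light embryos 467 to 903 CPM (median 651) and 1257 to 1909 CPM (median 1584). The log2 fold changes were 2.24 ± 0.28 (adjusted p = 2.38e-07) and 1.25 ± 0.27 (adjusted p = 0.00306), without overlap between the stages in either group. In control embryos Tyms (1.77 ± 0.32, adjusted p = 8.94e-05) and Fen1, the flap endonuclease that trims Okazaki fragments (3.51 ± 0.69, adjusted p = 0.00027), also rose. The antisense gene Gm10143 covers 78.8% of the exon bases of Fen1, and reads of the pair cannot be told apart. Cdc45, a subunit of the active helicase, fell from 90.4 to 241 CPM to 0 to 126 CPM (log2 fold change -2.83 ± 0.74, adjusted p = 0.00542), and Orc1, the largest origin recognition subunit, from 37.1 to 113 CPM to 0 to 58.3 CPM (-3.29 ± 0.96, adjusted p = 0.0134), a call lost with edgeR and without control 8-cell replicate 1. In light embryos Orc5 rose (1.54 ± 0.39, adjusted p = 0.014) and Mcm6 fell (-1.05 ± 0.31, adjusted p = 0.0357). The call of Orc5 was lost with the values as deposited, and that of Mcm6 with quantile normalization, with edgeR and without any of 7 of the 14 libraries.

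From the morula to the blastocyst 2 of 47 genes fell in control embryos, against 15.9% of all genes changed (10.3% upward and 5.60% downward). They were Cdt1, from a mean of 277 ± 101 to 88.8 ± 16.3 CPM (log2 fold change -1.56 ± 0.37, adjusted p = 0.00354), and Rpa2, the middle RPA subunit, from 208 ± 73.3 to 70.3 ± 34.5 CPM (-1.57 ± 0.45, adjusted p = 0.0134). The call of Rpa2 was lost without control blastocyst replicate 1 or without control blastocyst replicate 3. In light embryos 3 changed, against 7.11% (4.03% upward and 3.08% downward), all of them nucleotide supply genes: Rrm1 rose by 2.07 ± 0.43 (adjusted p = 0.00167), and Rrm2 and Tyms fell by 1.25 ± 0.28 (adjusted p = 0.00374) and 1.35 ± 0.35 (adjusted p = 0.011). With the values as deposited 6 changed, 1 upward and 5 downward, on a scale where the median of all genes fell by 0.34. No gene of the 47 was called for a different size of step between light and control at the 3 later steps, where 4.78% (1.82% upward and 2.96% downward), 2.41% (1.41% and 1.00%) and 1.50% (0.486% and 1.01%) of all genes were. At an unadjusted p under 0.05 there were 8, 9 and 1, and edgeR called 0 at each. Without control 4-cell replicate 2 or without control 4-cell replicate 1 there were 3 and 2 at the first of these steps, and 1 without light 8-cell replicate 8, light 8-cell replicate 11, control 8-cell replicate 1 or control 8-cell replicate 2. At the next step there were 3 without control 8-cell replicate 1 and 1 without control 8-cell replicate 2. The steps share their middle stages, so they are not independent of each other.

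The second question was how light and control embryos differ at 1 stage. At the 2-cell stage 8 of 47 genes were called, 7 higher and 1 lower in light embryos, against 12.0% of 18090 genes (6.94% higher and 5.02% lower). The log2 fold change was above 0 for 37 of the 47, with a median of 0.91 against 0.05 over all genes. The count was 4 without light 2-cell replicate 12 or without light 2-cell replicate 14, 5 without control 2-cell replicate 8 or without control 2-cell replicate 9, and 13 without light 2-cell replicate 15. By role, 3 of the 8 origin firing genes (Cdc45, Cdc7 and Mcm10), 2 of the 3 Okazaki and untangling genes (Fen1 and Top2a), 1 of the 6 helicase genes (Mcm6) and 1 of the 3 nucleotide supply genes (Tyms) were higher, and none of the origin recognition, licensing, polymerase, clamp and RPA genes was called.

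Cdc45 had 4.59 to 175 CPM (median 128) in control and 273 to 441 CPM (median 389) in light 2-cell libraries, the single replication gene whose groups did not overlap, against 4.81% of all genes. Its log2 fold change was 2.26 ± 0.51 (adjusted p = 0.00327). Mcm6 had 54.8 to 148 CPM (median 76.2) in control and 144 to 427 CPM (median 240) in light libraries, so that only the highest control lay above the lowest light library, and its log2 fold change was 1.49 ± 0.32 (adjusted p = 0.00213). Fen1 had 0 to 48.0 CPM (median 25.6) and 31.4 to 244 CPM (median 93.2), a log2 fold change of 2.53 ± 0.65 (adjusted p = 0.00926). The antisense gene Gm10143 covers 78.8% of the exon bases of Fen1, was itself called higher (2.92, adjusted p = 0.00233), and shares reads that cannot be assigned without strand. Tyms had 0.353 to 45.7 CPM (median 5.87) and 15.6 to 50.2 CPM (median 38.9), a log2 fold change of 2.53 ± 0.72 (adjusted p = 0.0182) that was lost with edgeR (1.70) and DESeq2 (1.72) on the recovered reads. Tyms also has a pseudogene copy, Tyms-ps, and how reads common to both were counted is not given in the sources used here. The calls of Mcm6, Cdc45, Fen1 and Tyms were kept without each of the 13 libraries.

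The remaining called genes of that stage rested on fewer libraries. Gins2 was the 1 lower gene, with 33.4 to 67.6 CPM (median 54.4) in control and 2.46 to 54.9 CPM (median 15.1) in light libraries (log2 fold change -1.66 ± 0.53, adjusted p = 0.034), and its call was lost without any of 7 of the 13 libraries. The call was also lost without the filter, with edgeR, with DESeq2 and in 1 fit over all libraries. Gse1, the partner of Gins2, differed by -0.78 and was not called. Top2a (1.11 ± 0.33, adjusted p = 0.0223), Cdc7 (1.66 ± 0.54, adjusted p = 0.0366) and Mcm10 (1.28 ± 0.43, adjusted p = 0.0448) lost their calls without any of 3, 8 and 7 libraries. The summed level of 10 oocyte genes did not overlap between the groups at this stage and 3 of 9 tested were called lower in light embryos, while a cumulus cell list of 6 genes in the table summed to 20.5 to 78.1 CPM in control and 50.5 to 167 CPM in light libraries, with 2 of 4 tested called higher.

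At the 4-cell stage 0 of 47 genes were called by limma, against 2.15% of all genes (1.69% higher and 0.466% lower), also 0 without control 4-cell replicate 3 and 0 with edgeR and DESeq2. At an unadjusted p under 0.05 there were 6. The median log2 fold change was 0.24, against 0.17 over all genes. Rfc1, the large subunit of the clamp loader, was the 1 gene whose groups did not overlap, against 0.819% of all genes, with 246 to 439 CPM (median 309) in control and 136 to 221 CPM (median 182) in light libraries (log2 fold change -0.79 ± 0.24, adjusted p = 0.0826).

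At the 8-cell stage 7 of 47 genes were called, 5 higher and 2 lower in light embryos, against 8.49% of 14728 genes (4.83% higher and 3.66% lower), and the median log2 fold change was 0.40 against 0.08 over all genes. The count was 4 without control 8-cell replicate 3 and 4 with edgeR. By adjusted p, though not by fold change, nucleotide supply genes came first among the higher genes. Rrm2 had 50.7, 72.0, 172 and 247 CPM in the 4 controls and 467 to 903 CPM (median 651) in the 8 light libraries, a log2 fold change of 2.54 ± 0.32 (adjusted p = 3.48e-05). Tyms had 39.5, 44.6, 64.7 and 99.2 CPM in the controls and 109 to 276 CPM (median 230) in light libraries (1.78 ± 0.34, adjusted p = 0.00197). Neither gene overlapped between the groups.

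Rfc4, a small clamp loader subunit, had 0, 2.02, 11.0 and 22.5 CPM in the controls and 22.3 to 87.8 CPM (median 57.5) in light libraries (3.22 ± 0.71, adjusted p = 0.00583), and its call was lost with edgeR. Fen1 had 0, 2.02, 3.71 and 50.7 CPM against 8.17 to 151 CPM (median 34.8), and its call (2.94 ± 0.86, adjusted p = 0.0328) was lost without any of 6 of the 12 libraries and with both count tools. Gm10143, whose reads cannot be told apart from those of Fen1, differed by 2.66 (limma, adjusted p = 0.0525). Orc3 (3.29 ± 1.00, adjusted p = 0.0404), at 0 to 39.4 CPM in control and 3.06 to 106 CPM in light libraries, lost its call without any of 9 libraries.

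Top2a and Lig1 were the lower genes of the 8-cell stage. Top2a had 410, 547, 818 and 904 CPM in the controls and 133 to 335 CPM (median 247) in light libraries, without overlap, a log2 fold change of -1.43 ± 0.28 (adjusted p = 0.00242), whereas at the 2-cell stage it had been higher in light embryos. Lig1, the ligase that seals Okazaki fragments, had 26.3, 71.9, 95.8 and 146 CPM against 8.23 to 38.0 CPM (median 17.5) (-2.08 ± 0.59, adjusted p = 0.0278). Its call was lost without any of 3 controls. With Mcm6 (201 to 296 CPM in control and 307 to 543 CPM in light libraries, adjusted p = 0.0659) 4 of 47 genes did not overlap, against 5.61% of all genes. Genes of the transient 2-cell programme summed to 58.7 to 423 CPM in the 8-cell controls and 0.894 to 91.5 CPM in the light libraries, with 1 of 5 tested called lower in light embryos.

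In morulae 1 of 47 genes was called, against 1.59% of all genes (0.847% higher and 0.742% lower), and it was Rrm2 again. It had 290 to 898 CPM (median 578) in 13 control and 1257 to 1909 CPM (median 1584) in 6 light libraries, without overlap (0.513% of all genes), a log2 fold change of 1.56 ± 0.22 (adjusted p = 0.000309) that was called under each alternative and without each of the 19 libraries. The median log2 fold change of the 47 genes was 0.44, against 0.25 over all genes. The light means of Rrm2 were above the control means at all 5 stages, with log2 fold changes of 0.69 ± 0.50, 1.11 ± 0.48 and 0.89 ± 0.38 at the 2-cell, 4-cell and blastocyst stages that did not pass the test (adjusted p = 0.395, 0.202 and 0.268).

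**Figure D4:**
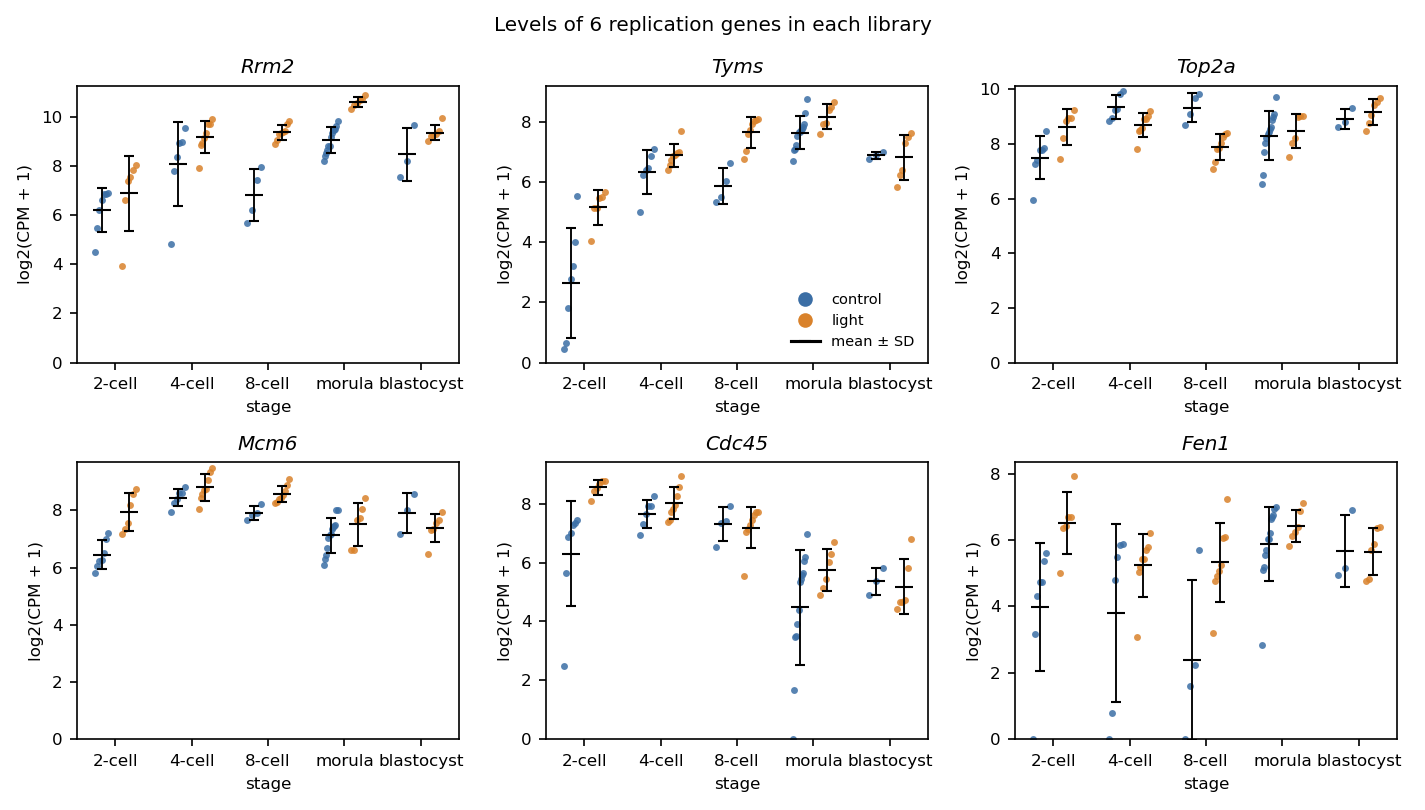
Log2(CPM + 1) (y axis, from 0) of Rrm2, Tyms, Top2a, Mcm6, Cdc45 and Fen1 in each library by stage (x axis), control and light, points ordered by value within a group, with the mean ± SD of the log2 values. Rrm2 is higher in every light than in every control library of the 8-cell and morula stages, and Top2a is higher in the light 2-cell group and lower in every light 8-cell library.

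In blastocysts 1 of 47 genes was called, lower in light embryos, against 1.90% of all genes (1.03% higher and 0.865% lower). Pola1, the catalytic subunit of polymerase alpha, had 231, 276 and 388 CPM in the 3 controls and 88.5 to 131 CPM (median 115) in the 6 light libraries, a log2 fold change of -1.37 ± 0.34 (adjusted p = 0.0361), and its call was lost without any of 7 of the 9 libraries. Pola1 is the only one of the 47 genes on the X chromosome (93304767 to 93632155, minus strand, GRCm38). The Y-linked genes reached 10 CPM in 0 of the 3 control and 6 of the 6 light blastocyst libraries, and 296 X-linked genes with a mean of at least 10 CPM had a median difference of -0.92 on the log2 scale, against 0.06 over 8649 autosomal genes. The part of this in the difference of Pola1 was not tested.

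The other genes of the blastocyst stage did not pass the test, though 4 of 47 did not overlap between the groups, against 7.21% of all genes. Besides Pola1 these were Rrm1 (216, 257 and 379 CPM against 428 to 1002 CPM, adjusted p = 0.0679), Rfc1 (35.9, 75.1 and 76.2 CPM against 88.9 to 135 CPM, adjusted p = 0.296) and Gins3, a GINS subunit (1.86, 3.50 and 10.7 CPM against 11.8 to 50.7 CPM, adjusted p = 0.137). Trophectoderm markers summed to 1045 to 8554 CPM in control and 10013 to 13941 CPM in light blastocyst libraries, with 3 of 10 called higher, and inner cell mass markers to 467 to 4962 CPM and 451 to 716 CPM, with 2 of 10 called lower. The part of this in the blastocyst comparison was not tested. With the values as deposited the median of all genes was -0.64 and that of the 47 genes -0.62, and of the genes called 51 were higher and 665 lower, against 146 and 122 on the CPM scale.

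Subunits of 1 complex were compared per length, as CPM per kilobase of exon in GENCODE M21. Orc6 had the highest level of the 6 origin recognition genes in 60 of 67 libraries, at a group mean of 113 per kilobase in control 2-cell embryos, where Orc3, the lowest, had 2.12. The ratio of the highest to the lowest gene was 53.0 there and 5.32 to 17.3 in the later control groups. Gins4 was the highest GINS gene in 57 and Rpa2 the highest RPA gene in 59 of 67 libraries. Within the helicase the group means differed by 2.17-fold to 5.56-fold. Mcm6 was highest in all 6 light 2-cell, all 8 light 4-cell and all 12 8-cell libraries, and another gene had the highest mean in each morula and blastocyst group. In the clamp loader Rfc1 led the control means up to the 8-cell stage and Rfc4 in morulae and blastocysts. Exon lengths count all annotated exons, so a ratio between genes also depends on the isoforms used.

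**Figure D5:**
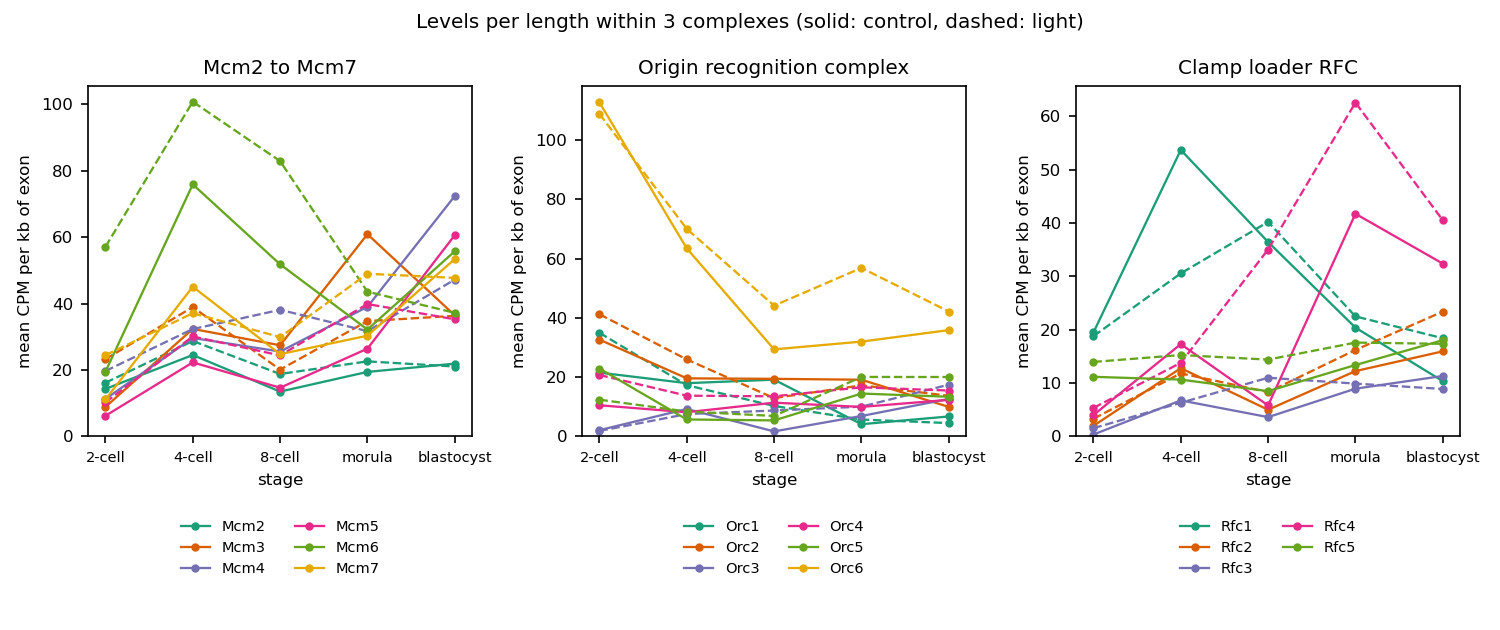
Group means in CPM per kilobase of exon (y axis, from 0) by stage (x axis) for the helicase genes, the origin recognition complex and the clamp loader, with control as solid and light as dashed lines. Mcm6 is the top helicase line up to the 8-cell stage, Orc6 is above the other origin recognition genes in all 10 groups, and Rfc1 gives way to Rfc4 in morulae.

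The wider pathway was read from 4 lists of 59 genes outside the 47. In the 2-cell to 4-cell control step 13 of 59 rose and 21 fell, where 16.6% and 28.5% of all genes did, and in light embryos 5 rose and 9 fell, where 7.84% and 18.6% of all genes did. Umps and Cad, enzymes of pyrimidine synthesis, and Tk1, the thymidine kinase, rose in control embryos by 3.68, 3.03 and 4.32 on the log2 scale, while Rrm2b, the p53-induced partner of Rrm1, fell by 5.48, Rb1, the retinoblastoma protein, by 4.93 and E2f1 by 3.26. The S phase entry regulators as a list went against the machinery, with 2 of 17 higher and 10 lower in the control step. In light embryos Tk1, Cad and Cdc25a, the phosphatase that activates Cdk2, rose by 2.87, 2.22 and 1.69, and Rrm2b, Rb1 and Donson, a helicase loading factor, fell by 2.84, 3.51 and 2.54. The step differed between light and control for Rrm2b (2.64, adjusted p = 0.0241), Umps (-2.94, adjusted p = 0.00357), Rbbp4 (-1.93, adjusted p = 0.023) and Cdkn1a (-2.30, adjusted p = 0.044). Of all genes 4.06% were called for this difference, 1.94% higher and 2.13% lower.

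Between light and control, 11 of 57 tested genes of these lists were called at the 2-cell stage, 8 higher and 3 lower, against 6.94% and 5.02% of all genes. Umps (3.67 to 38.0 CPM in control and 39.6 to 222 CPM in light libraries), Ccne1, cyclin E1 (107 to 361 and 467 to 1206 CPM), and Rbbp4, a histone chaperone (20.5 to 83.9 and 105 to 203 CPM), were higher without overlap, with log2 fold changes of 3.43, 1.68 and 1.70. Dut, the dUTPase, E2f2 and Ccne2, cyclin E2, were lower (-1.48, -1.57 and -1.34). At the 4-cell stage 4 of 56 were higher and 0 lower, against 1.69% and 0.466% of all genes, among them Fbxo5, an inhibitor of the anaphase-promoting complex (2.66), Ccna2, cyclin A2 (1.23), and Cdc25a (1.36). At the 8-cell stage 2 of 56 were higher, Asf1b, a histone chaperone (3.90), and Pole3, a small subunit of polymerase epsilon (1.29), and 2 lower, Top1 (-1.32) and E2f2 (-2.88), against 4.83% and 3.66% of all genes. Of 59 genes 1 was called in each later stage, against 1.59% of all genes in morulae and 1.90% in blastocysts. In morulae Ticrr, which helps load Cdc45, was lower (-1.56), and in blastocysts Cdkn1a, the p21 inhibitor of cyclin-dependent kinases, was higher (1.60), at 45.2, 47.2 and 74.5 CPM in the controls and 125 to 218 CPM in light libraries.

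In the later steps fewer genes of these lists changed. From the 4-cell to the 8-cell stage 2 of 59 rose and 3 fell in control embryos, against 3.80% and 2.73% of all genes (Rbbp7 and Asf1a higher by 1.16 and 2.44, and Asf1b, Tk1 and Pole3 at -3.38, -1.40 and -1.32), and Rbbp7 rose in light embryos (1.53). The difference between the groups was called for Asf1b (3.45), Pole3 (1.55) and Rrm2b (-3.63), where 4.78% of all genes were called, 1.82% higher and 2.96% lower. From the 8-cell stage to the morula 4 rose and 4 fell in control embryos, against 6.97% and 10.9% of all genes, led by Rnaseh2b, Rnaseh2c and Asf1b (2.23, 1.90 and 2.79) and by Chaf1a, Cdk2 and Rrm2b (-1.88, -1.75 and -2.54), and 5 fell in light embryos, against 2.60%, led by Ccne1, Ccna2 and Ticrr (-1.92, -1.07 and -1.76). From the morula to the blastocyst 4 rose and 7 fell in control embryos, against 10.3% and 5.60% of all genes, and 3 and 4 in light embryos, against 4.03% and 3.08%. Uhrf1, which reads hemimethylated DNA behind the fork, and Top2b rose in both groups (3.72 and 3.36, 3.93 and 4.37), and Cdkn1a fell in both (-2.72 and -1.74). Also called were Cdk2, which rose (2.07), and Top1 and Ccne1, which fell (-2.12 and -2.38), in control embryos, and Cdkn1b, which rose (2.07), and Cad and Rbbp4, which fell (-1.58 and -1.29), in light embryos, while Top1 fell in light embryos (-1.46) and Cad in control embryos (-1.15) too.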

How the data were processed

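RNA was measured with SMART-seq2 in 67 libraries of C57BL/6 embryo cells. The authors deposited 1 table of signal values, reads per gene divided by a size factor of each library, with no sign of the RPKM that the methods describe. HISAT2, HTSeq 0.9.1 and the build mm9 are named in the submitters' processing notes without their roles. Whole reads were recovered within 0.01 reads, for at least 99.95% of nonzero values in a library and all values of the 47 genes. CT010467.1 and Gm42418, on which the deposited size factors rest, were left out of the totals, so the main scale is CPM and the deposited signal an alternative.

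limma 3.58.1 (lmFit, eBayes with trend, R 4.3.3) was fitted to log2(CPM + 1), for genes above 1 CPM in at least 3 of the libraries compared. Fold changes of low genes depend on the added 1 CPM and on libraries near 0. They can exceed those of count tools, as for Tyms between light and control 2-cell libraries (2.53 against 1.70 with edgeR). The fit for light against control used the libraries of 1 stage, and that for a step the 4 groups of both stages with an interaction term. A call needs an adjusted p (Benjamini-Hochberg over all genes tested) under 0.05 with at least a 2-fold difference. Alternatives were the deposited values, median ratio scaling, quantile normalization, a pseudocount of 5, no filter, edgeR 4.0.16, DESeq2 1.42.0 and 1 fit over all libraries (the last 2 for light against control), the embryo number as a block, and leaving out each library. The scripts were tested on simulated data.

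Values by library were given for the called genes with the smallest adjusted p, up to 4 in each direction per stage, fold changes for up to 3 per step, and up to 3 genes per direction of the other lists. Rrm1, Rfc1, Gins3, Mcm5, Orc3 and other genes outside this rule were named after their values were seen. The 47 genes, roles and lists were chosen with earlier results of these data known. Coordinates and exon lengths come from GENCODE M21 (GRCm38) and promoters from RefSeq. The closest libraries of any group differed by a chi-square per degree of freedom of at least 6.64, so none was counted as a duplicate. Intervals from counting were not needed, since each comparison uses replicates, and a level of 1 read, 0.349 to 3.14 CPM, limits what can be seen in a library. Lists of 10 oocyte, 7 transient 2-cell, 10 trophectoderm, 10 inner cell mass, 8 primitive endoderm, 8 cumulus (6 in the table) and 6 sperm genes were used as markers. Primitive endoderm genes summed to 121 to 1755 CPM over the libraries.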

Additional observations from a re-analysis of the deposited data

Results flagged for a closer look

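In 32 tests, each of the summed level or of 1 named gene in a group of 4 to 10 libraries, 1 library stood far from the others 3 times. Chance gives about 1 in 20 for a single test. The tests reuse the same libraries, and the genes were picked from calls in them, so the 32 are not independent. The summed level of the 47 genes was 8725 CPM in light morula replicate 6. In control 2-cell replicate 8 Cdc45 had a log2(CPM + 1) of 2.48, and in light 2-cell replicate 15 Tyms had 4.05. The calls of both genes at the 2-cell stage were kept without these libraries.

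The step of Top2a from the 2-cell to the 4-cell stage differed between light and control by -1.78 on the log2 scale in a test of the difference itself (limma, adjusted p = 0.0159), and the call was kept under each of 6 alternatives and without each of the 27 libraries.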

How the results depend on the processing

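Of 406 alternatives to the 17 counts of replication genes called, 365 stayed within 1.5 times the count, and of 823 alternatives to 40 values of named genes 65 lost the call and 0 changed direction. The 365 include counts of 0 that stayed 0, and several of the 17 counts were 0, so they say little of the counts above 0. The 40 values are only the calls with the smallest adjusted p in each comparison. Calls outside them ranged from kept without each of 13 libraries (Tyms, control 2-cell to 4-cell step) to lost without any of 9 of 12 (Orc3, light against control, 8-cell stage). With the values as deposited 5 genes were called between light and control at the 2-cell stage, 14 in the control and 9 in the light step from the 4-cell to the 8-cell stage, and 6 in the light step from the morula to the blastocyst. On that scale the log2 ratio of the light to the control median of the summed level was 0.016 in morulae and -0.19 in blastocysts. Without the filter, 4 were called at the 2-cell stage and 0 in blastocysts. With edgeR there were 4 at the 8-cell stage, 2 for the difference between the 2-cell to 4-cell steps, 1 in the control step from the 4-cell to the 8-cell stage and 7 in that from the 8-cell stage to the morula. DESeq2 called 3 in blastocysts, 1 fit over all libraries 3 in morulae and 0 in blastocysts, and quantile normalization 1 for the difference between the 4-cell to 8-cell steps. The cause of these changes was not tested.

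Leaving out each library gave between 4 and 13 genes at the 2-cell stage, between 4 and 7 at the 8-cell stage and 0 to 1 in blastocysts, 1 to 2 for the difference between the 2-cell to 4-cell steps, 1 to 5 in the control 4-cell to 8-cell step, 0 to 3 for the difference at that step and for that at the next, and 1 to 3 in the control step from the morula to the blastocyst. The embryo numbers shared by light and control did not pair the libraries (correlations of deviations from -0.067 to 0.062). An embryo was either lit or kept dark, so a shared number cannot mark 1 embryo. Neither these correlations nor the block can show whether libraries within a group share an embryo. With the embryo number as a replicate block 8, 0 and 1 genes were called at the 2-cell stage, the 4-cell stage and in morulae, as without the block, and no other comparison shared enough numbers for a paired fit.

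Over all genes the calls between light and control moved by over 1.5 times in several settings. At the 4-cell stage 323 genes were called, 214 as deposited, 83 without the filter, 152 with edgeR, 743 with DESeq2, and leaving out 1 library gave from 121 (without control 4-cell replicate 5) to 930 (without control 4-cell replicate 3). In morulae 257 were called, 409 with DESeq2 1226 in 1 fit over all libraries and 127 to 345 on leaving out 1 library (lowest without light morula replicate 3), and the lower share of 46.7% was 69.7% as deposited and 71.9% after quantile normalization. In blastocysts 268 were called, 716 as deposited, 91 without the filter, 164 with edgeR, 472 with DESeq2 510 in 1 fit over all libraries and 55 to 452 on leaving out 1 library (without control blastocyst replicate 1 and without control blastocyst replicate 3), and the lower share of 45.5% was 92.9% as deposited. In the control 4-cell to 8-cell step 1136 were called and 2081 as deposited, and in the light step 105 and 923, with 66 without the filter and 52 with edgeR. In the light step from the morula to the blastocyst 1288 were called and 771 with edgeR. The lower share of the 2-cell to 4-cell calls was 63.1% in control and 70.4% in light embryos, and 49.8% and 53.4% after quantile normalization. As deposited, the lower share was 79.5% against 41.8% in the control and 95.2% against 63.8% in the light 4-cell to 8-cell step, and 76.5% against 43.3% in the light step from the morula to the blastocyst. In the control step from the morula to the blastocyst it was 35.2%, and 54.5% after quantile normalization. At the 4-cell stage it was 21.7%, and 34.0% after quantile normalization, 46.7% with edgeR and 50.1% with DESeq2. Depth limits low genes, since 1 read was worth up to 3.14 CPM.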
